A study of Mus musculus with 12 samples.

Results

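Mixl1 is 1 gene of the 30743 genes and transcripts counted in 12 RNA-seq libraries of sorted mouse lung cancer cells. It was chosen by its own levels in these libraries, because it was present in cells with guide RNAs against Sik genes and near absent in KT;Lkb1f/f and KT cells. The levels of Mixl1 in those groups are therefore a description and carry no test. Mixl1 encodes a paired-like homeodomain transcription factor of the primitive streak, the region of the gastrulating embryo where mesoderm and definitive endoderm arise. In the embryo its transcription is induced by Nodal and activin, whose receptors act through Smad2, Smad3 and Smad4 with the partner factor Foxh1, and it is switched on there alongside the T-box factors T and Eomes. It is not a known marker of normal lung epithelium, and it has also been described in blood progenitors.

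The mice that bore the tumours had a mixed BL6/129 strain background, and KT is common to all 12 libraries. The labels do not spell out the alleles that KT stands for. The groups were KT;H11LSL-Cas9 tumours titled sgSik1-3 (2 libraries) and sgSik1 (3 libraries), KT;Lkb1f/f tumours (3 libraries) and KT tumours (4 libraries). H11LSL-Cas9 is a Cre-dependent Cas9 allele at the H11 locus, f/f marks floxed alleles of Lkb1 (gene symbol Stk11), and Lkb1 is an upstream activating kinase of the salt-inducible kinases, which Sik1, Sik2 and Sik3 encode. The genotype label puts both guide titles in 1 group, called Sik-targeted here (5 libraries). The labels give no ages, leave the range in the title sgSik1-3 unexplained, and do not state whether libraries of a group came from separate animals, so p-values measure the spread between these libraries, which may be technical. The alternative sample names in the labels mention lentiviral Cre for KT replicates 2, 3 and 4 and not for replicate 1.

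Library totals ranged from 3847760 to 13955181 counts. KT replicates 2 and 3 stood apart from the other libraries, with 23582 and 23747 genes detected against 14283 to 16533 elsewhere. They also had counts in 1000 and 1066 olfactory and vomeronasal receptor genes, against 14 to 58 elsewhere, and the cause was not tested. The calls of streak and signalling genes against KT are given with and without these 2 libraries. Levels are given as CPM, counts scaled to a common library size. Among the targeted genes, Stk11 had 9.23, 16.6 and 9.92 CPM in KT;Lkb1f/f libraries, against 44.7, 39.1, 40.9 and 31.0 CPM in KT libraries. Sik3 averaged 14.4 ± 6.16 CPM in Sik-targeted libraries (SD, n = 5) and 36.0 ± 8.79 CPM in KT libraries (SD, n = 4), without overlap. Sik1 averaged 229 ± 172 CPM in Sik-targeted and 48.6 ± 8.75 CPM in KT libraries, and Sik2 averaged 18.4 ± 5.82 CPM in Sik-targeted and 7.86 ± 2.35 CPM in KT libraries (SD, n = 5 and 4). In KT;Lkb1f/f libraries Sik1 averaged 175 ± 34.6 CPM and Sik2 22.9 ± 7.76 CPM (SD, n = 3), both also without overlap with KT. A count over exons does not show what a guide did to the protein. The lung epithelial genes Epcam, Cdh1 and Nkx2-1 were detected in all 12 libraries.

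Mixl1 lies on chromosome 1 at 180693043 to 180697034 on the minus strand (mm10, which is GRCm38; GENCODE gene ENSMUSG00000026497.7). The annotation gives it 1 transcript with 2 exons, at 180696620 to 180697034 and 180693043 to 180694921, and 2294 exon bases in all, of which 1579 are the 3′ untranslated region. No other gene of the RefSeq table overlaps it. Neither the annotation that the authors counted against nor its use of strand was given, so shared reads cannot be judged.

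Mixl1 was read at a substantial level in every Sik-targeted library and was close to the detection limit in every other library. The sgSik1-3 libraries held 273 and 73 Mixl1 counts, which are 64.5 and 13.2 CPM. The sgSik1 libraries held 87, 133 and 935 counts, or 24.7, 18.9 and 51.0 CPM. The KT;Lkb1f/f libraries held 10, 11 and 2 counts, or 1.21, 1.13 and 0.367 CPM, and the KT libraries held 6, 3, 7 and 4 counts, or 0.944, 0.223, 0.562 and 0.849 CPM. No library of the KT;Lkb1f/f or KT groups came near a Sik-targeted library, while the KT;Lkb1f/f and KT values overlapped each other.

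**Figure D1:**
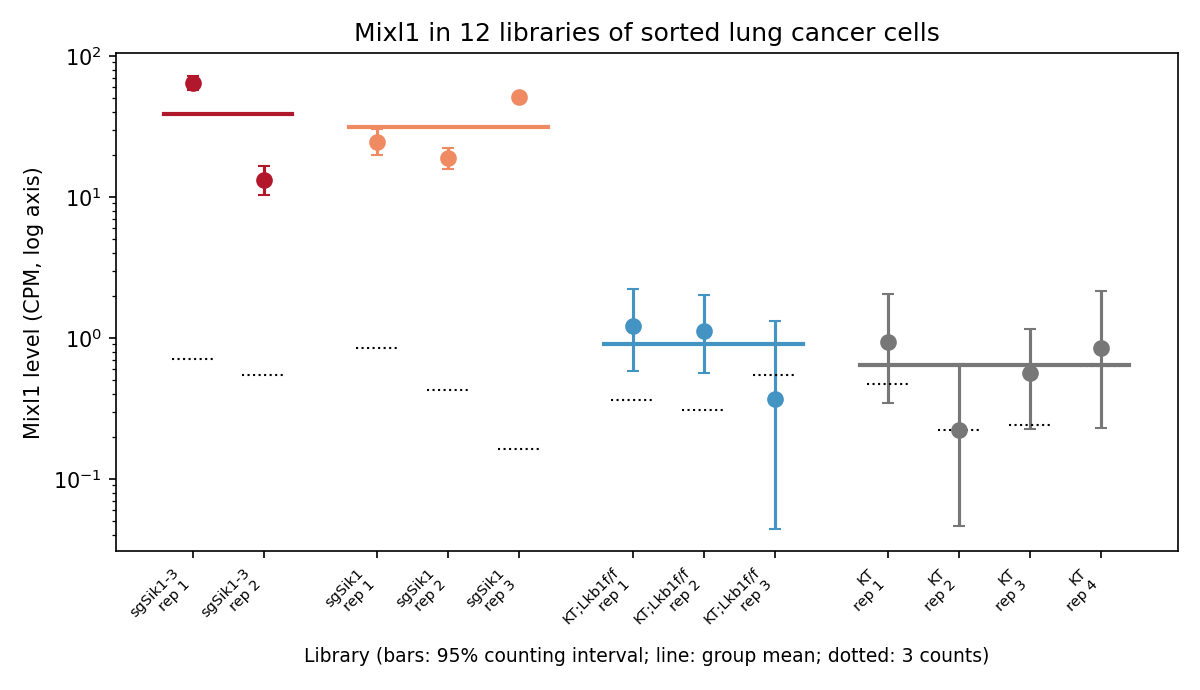
Mixl1 level in CPM (log axis) in each of the 12 libraries, with exact 95% Poisson intervals as bars, group means as lines and the level of 3 counts as dotted marks. The 5 Sik-targeted libraries sit between 13.2 and 64.5 CPM, and the other 7 sit between 0.223 and 1.21 CPM.

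Group means were 38.9 ± 36.3 CPM in sgSik1-3 (SD, n = 2), 31.6 ± 17.1 CPM in sgSik1 (SD, n = 3), 0.905 ± 0.467 CPM in KT;Lkb1f/f (SD, n = 3) and 0.645 ± 0.324 CPM in KT (SD, n = 4). In that order, neighbouring sgSik1-3 and sgSik1 did not differ beyond their spread, nor did KT;Lkb1f/f and KT, and the only step without overlap was the one between sgSik1 and KT;Lkb1f/f. The mean of the 5 Sik-targeted libraries was 34.5 ± 22.2 CPM (SD), 38.1 times the KT;Lkb1f/f mean and 53.5 times the KT mean. Scaled to total counts instead, these factors were 33.9 and 30.1. The KT;Lkb1f/f mean was 1.40 times the KT mean, or 0.888 times on total counts. In single libraries a level of 3 counts, taken as the limit of detection, corresponded to 0.164 to 0.853 CPM. KT;Lkb1f/f replicate 3, with 2 counts, lay under that limit, and its exact 95% Poisson interval ran from 0.0445 to 1.33 CPM. These intervals cover counting error only, because amplified reads without molecular tags are not independent molecules. In bulk samples, fewer cells carrying a transcript and less RNA per cell cannot be told apart, so the CPM values do not show whether all Sik-targeted cells or a subset carried Mixl1.

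The distance between the groups was wide compared with other genes. The lowest Sik-targeted library (13.2 CPM) was 10.9 times the highest of the other 7 libraries (1.21 CPM). Of the 13575 genes tested, 154 (1.13%) had every Sik-targeted library above every other library, and Mixl1 alone (0.00737%) had a gap of this factor. The gap depended on the scaling but stayed ahead of all other tested genes: it was 5.88-fold on total counts and 6.64-fold in raw counts (73 against 11). Since the gene was chosen for this separation, the rank is a description.

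The choice of the gene did not use the size of the difference between the guide titles, and that difference was tested. The choice did ask for raised levels in both titles, which favours a small difference, so the result is read with that limit. Mixl1 was 0.28 higher in sgSik1-3 than in sgSik1 on the log2 scale (SE 0.645, 95% interval -1.08 to 1.65, adjusted p = 1, edgeR quasi-likelihood test with Benjamini-Hochberg adjustment over 15303 genes). The interval is wide, so equal levels were not shown. Without sgSik1-3 replicate 1 the value turned to -1.28, and with limma-voom it was -0.06. No gene passed in this comparison (0% of those tested), while DESeq2 called 6. Of the 15303 genes, 528 had an unadjusted p under 0.05 in the edgeR test, a smaller share than the 0.05 that chance alone would give.

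The spread within the Sik-targeted group was 4.88-fold from the lowest to the highest library and did not follow the guide title. The highest levels were in sgSik1-3 replicate 1 (64.5 CPM) and sgSik1 replicate 3 (51.0 CPM), and the lowest was in sgSik1-3 replicate 2 (13.2 CPM). Sik3 had 8.74 and 11.9 CPM in sgSik1-3 libraries and 21.0, 20.9 and 9.17 CPM in sgSik1 libraries. The lowest Sik3 values were thus in the same libraries as the highest Mixl1 values, but sgSik1-3 replicate 2 combined low Sik3 with the lowest Mixl1. With 5 libraries no correlation was computed.

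The genes beside Mixl1 were examined to see whether they shared its pattern. Lin9, a subunit of the MuvB cell-cycle complex, lies 2355 bases away, and Acbd3, a Golgi protein gene, 29008 bases away on the other side. Parp1, which encodes the DNA damage sensor PARP1, lies 92043 bases away beyond Lin9. Lin9 averaged 8.44 ± 3.66 CPM in Sik-targeted libraries (SD, n = 5) and 5.10 ± 1.76 CPM in KT libraries (SD, n = 4). Its log2 change was 0.72 (SE 0.432, adjusted p = 0.294 by edgeR's quasi-likelihood test with Benjamini-Hochberg adjustment). Acbd3 had a log2 change of 0.69 (SE 0.331, adjusted p = 0.187) and Parp1 one of 0.40 (SE 0.294, adjusted p = 0.397). None of these 3 neighbours passed the test. Acbd3 had 79.1 and 69.0 CPM in sgSik1-3, 21.6, 66.0 and 73.3 CPM in sgSik1, 55.5, 54.3 and 44.3 CPM in KT;Lkb1f/f and 45.5, 37.2, 35.7 and 35.7 CPM in KT libraries. All Sik-targeted libraries except sgSik1 replicate 1 lay above the other groups, and without that library Acbd3 passed (log2 change 0.89, adjusted p = 0.016). Lefty2 and Lefty1, the Nodal antagonists, lie 196073 and 237987 bases from Mixl1. Lefty1 had 1 and 0 counts in sgSik1-3, 4, 2 and 8 in sgSik1, 6, 7 and 0 in KT;Lkb1f/f, and 0, 1, 0 and 0 in KT libraries, and Lefty2 had at most 7 counts in any library.

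**Figure D2:**
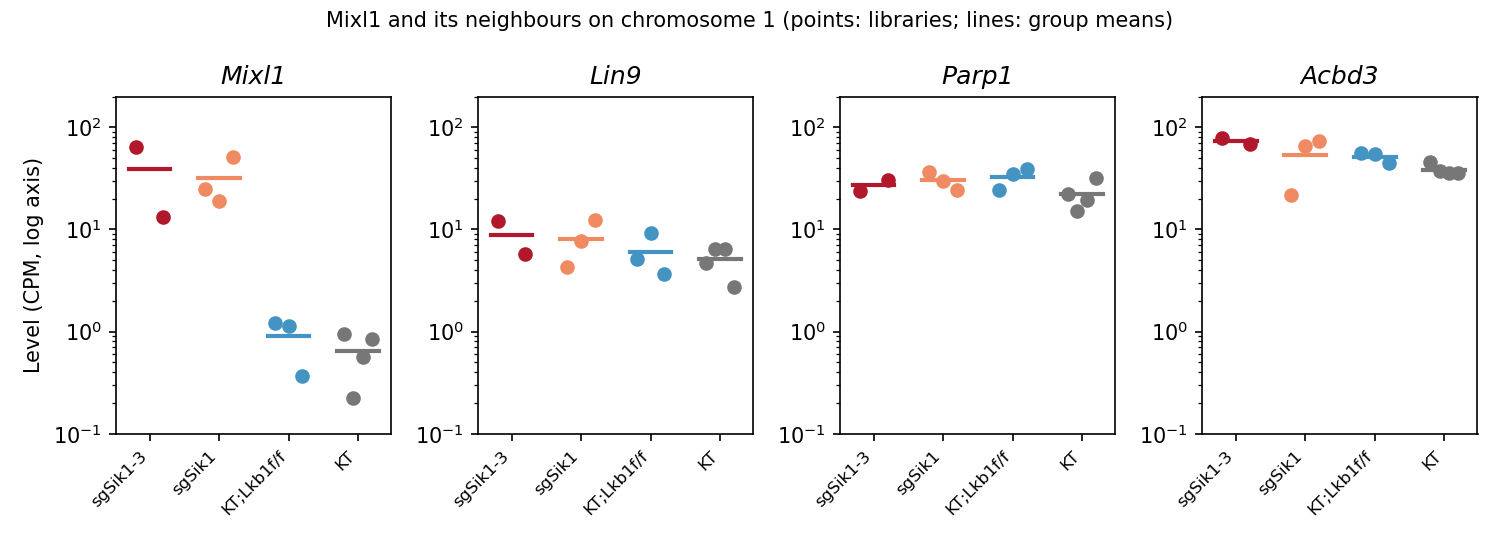
Level in CPM (log axis) of Mixl1, Lin9, Parp1 and Acbd3 in each library, with points for libraries and lines for group means. Mixl1 separates the Sik-targeted libraries from the rest, whereas the Sik-targeted libraries overlap the others for the 3 neighbours, for Acbd3 through sgSik1 replicate 1 alone (21.6 CPM).

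The factors that accompany Mixl1 in the primitive streak were at or near 0 counts in the libraries with high Mixl1. Gsc, a homeobox factor of the organizer, had 0 counts in all 12 libraries. T had 0 counts in all 5 Sik-targeted and all 3 KT;Lkb1f/f libraries and 5 counts each in KT replicates 2 and 3 only. Eomes had 1 count in sgSik1-3 replicate 2 and 0 in the other Sik-targeted libraries, and 8 and 6 counts in KT replicates 2 and 3. A count of 0 allows a level of up to 0.164 to 0.853 CPM, depending on the library, so lower levels were not detectable at this depth. The pluripotency factor Pou5f1 had 1 count in KT replicate 2 and 0 elsewhere, and Nanog had 1 count in sgSik1 replicate 1 and 3 and 4 counts in KT replicates 2 and 3. The KT counts of these factors were thus all in the libraries that stood apart in genes detected. Their source was not tested, and they are not read as expression in KT cells.

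Of the endoderm factors that lung epithelium also uses, Foxa2 and Gata6 were present in all groups. Sox17 had at most 1.99 CPM in any library, and its presence in KT cells was not shown. Foxa2 had 15.4 and 15.7 CPM in sgSik1-3, 54.0, 17.4 and 14.7 CPM in sgSik1, 27.6, 7.51 and 14.3 CPM in KT;Lkb1f/f and 16.7, 8.64, 8.67 and 9.97 CPM in KT libraries. Its log2 change between Sik-targeted and KT libraries was 1.09 (SE 0.477, adjusted p = 0.147). Gata6 (0.55, SE 0.342, adjusted p = 0.313) and Sox17 (0.70, SE 0.855, adjusted p = 0.638) did not pass either. Sox17 had 1.27 and 1.20 CPM in KT replicates 2 and 3, against 0.157 and 0 CPM in KT replicates 1 and 4, and without replicates 2 and 3 its log2 change was 3.49 (adjusted p = 0.242). Of the 30 mesendoderm and primitive streak genes in the table, 13 could be tested.

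Of these 13 genes, 1 rose (Cxcr4) and 1 fell (Pdgfra) in Sik-targeted against KT cells, beside a background of 5.81% of all tested genes higher and 6.56% lower, or 12.4% in either direction. The median log2 change of the 13 was 0.69, against -0.03 over all tested genes. It was 0.78 in KT;Lkb1f/f against KT cells, where Mixl1 was near the detection limit in both groups, and -0.29 in Sik-targeted against KT;Lkb1f/f cells, with none of the 13 called in either. Cxcr4, a chemokine receptor of migrating endoderm, had 4.02 and 2.17 CPM in sgSik1-3, 2.56, 2.14 and 2.46 CPM in sgSik1, and 0.472, 0.968, 0.161 and 0 CPM in KT libraries (log2 change 2.56, SE 0.801, adjusted p = 0.0481). Its highest level, 8.02 CPM, was in KT;Lkb1f/f replicate 1. Pdgfra, a receptor of early mesoderm that is also in the fibroblast marker list, changed by -4.03 (SE 1.05, adjusted p = 0.0252). Both calls were lost when any of 7 single libraries was left out: adjusted p then ran from 0.0671 to 0.15 for Cxcr4 (without either sgSik1-3 library, sgSik1 replicate 1 or 3, or KT replicate 1, 3 or 4). It ran from 0.0505 to 0.0709 for Pdgfra (without either sgSik1-3 library, sgSik1 replicate 1 or 3, or KT replicate 2, 3 or 4), and was 0.0999 with limma-voom. Without KT replicate 2 the log2 change of Cxcr4 was 3.51. When KT replicates 2 and 3 were both left out, adjusted p was 0.186 for Cxcr4 and 0.157 for Pdgfra.

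Signals that induce Mixl1 in the embryo were examined next, ordered from ligands to targets. Nodal itself had 1 and 0 counts in sgSik1-3, 0, 0 and 11 in sgSik1, 0, 0 and 3 in KT;Lkb1f/f, and 0, 1, 3 and 4 in KT libraries. Its co-receptor gene Tdgf1 had 2 and 9 counts in KT replicates 2 and 3 and 0 in all other libraries. Neither could be tested, and neither separated the groups as Mixl1 did. Inhba, which encodes the subunit of activin A, was expressed in all groups, with 13 and 26.6 CPM in sgSik1-3, 30.7, 6.55 and 6.5 CPM in sgSik1, 3.52, 11.7 and 2.02 CPM in KT;Lkb1f/f and 2.36, 22.9, 14.9 and 1.49 CPM in KT libraries. The groups overlapped, and the log2 change between Sik-targeted and KT libraries was 0.64 (SE 0.747, adjusted p = 0.618). KT replicates 2 and 3 held most of the Inhba in that group, and without them the log2 change was 3.07 (adjusted p = 0.125).

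Of the 30 Nodal and activin signalling genes in the table, 20 were tested, and 8 rose and 1 fell in Sik-targeted against KT cells, beside the background of 5.81% and 6.56%. Their median log2 change was 0.60, against -0.03 over all tested genes. The 8 that rose were Fst, Smad3, Skil, Pmepa1, Pcsk6, Furin, Smad7 and Acvr1b, and the 1 that fell was Pcsk5. They are not of 1 direction of action: Fst, Skil, Pmepa1 and Smad7 are known as inhibitors or feedback targets of the pathway, Smad3 transmits the signal, Acvr1b is a type I activin receptor, and Pcsk6, Furin and Pcsk5 are proprotein convertases.

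Fst, which encodes the secreted activin antagonist follistatin, had a pattern close to that of Mixl1. Its levels were 146 and 75.1 CPM in sgSik1-3, 25.6, 32.3 and 51.0 CPM in sgSik1, 0.364, 4.63 and 0.367 CPM in KT;Lkb1f/f and 0.157, 2.75, 2.33 and 2.33 CPM in KT libraries. Every Sik-targeted library lay above every other library. The log2 change was 5.08 against KT (SE 0.853, adjusted p = 0.00346), and -0.04 in KT;Lkb1f/f against KT (SE 0.873, adjusted p = 0.992), a value that ran from -2.34 to 0.46 when single libraries were left out.

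Smad3 had 72.8 and 108 CPM in sgSik1-3, 223, 56.2 and 94.0 CPM in sgSik1, 85.8, 65.9 and 59.1 CPM in KT;Lkb1f/f and 24.7, 29.9, 27.5 and 39.0 CPM in KT libraries. The Sik-targeted libraries lay above the KT libraries and overlapped the KT;Lkb1f/f libraries. The log2 change was 1.87 in Sik-targeted against KT cells (SE 0.380, adjusted p = 0.00797) and 1.22 in KT;Lkb1f/f against KT cells (SE 0.409, adjusted p = 0.184, or 0.043 without sgSik1 replicate 1). Its partners did not pass: Smad2 had a log2 change of -0.44 (SE 0.363, adjusted p = 0.456) and Smad4 one of 0.57 (SE 0.289, adjusted p = 0.211), and Foxh1 had 1 count in sgSik1 replicate 2 and 0 in every other library.

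Skil, a repressor of Smad-driven transcription that is itself a Smad target, had 120 and 122 CPM in sgSik1-3, 114, 148 and 181 CPM in sgSik1, 215, 182 and 183 CPM in KT;Lkb1f/f and 50.3, 69.2, 51.8 and 57.3 CPM in KT libraries. It rose in Sik-targeted cells (1.26, SE 0.259, adjusted p = 0.00821). Unlike Mixl1, Skil was highest in KT;Lkb1f/f, where it also rose against KT (1.76, SE 0.286, adjusted p = 0.0143). It was the 1 called member of the 20 in that comparison, beside 0.611% of all tested genes higher in KT;Lkb1f/f and 1.16% called in either direction. Without KT replicate 3 the adjusted p of that KT;Lkb1f/f difference was 0.0723, and without KT replicates 2 and 3 together it was 0.269.

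Pmepa1, a feedback inhibitor, rose by 1.70 (SE 0.367, adjusted p = 0.0105), Pcsk6 by 2.91 (SE 0.692, adjusted p = 0.0163) and Acvr1b by 1.42 (SE 0.423, adjusted p = 0.0398), while Pcsk5 fell by 4.29 (SE 1.01, adjusted p = 0.0154). Furin (2.00, SE 0.536, adjusted p = 0.0262) and Smad7 (1.98, SE 0.530, adjusted p = 0.0263) also rose and were named after their values were seen. Both were highest in sgSik1 replicate 1, at 301 CPM for Furin and 130 CPM for Smad7, and without that library the log2 changes were 1.30 and 1.06. Without sgSik1 replicate 2, Pcsk5 fell by 5.43. The type II receptors Acvr2a (-0.25, SE 0.377, adjusted p = 0.712) and Acvr2b (-0.43, SE 0.668, adjusted p = 0.719) did not pass. The calls of Fst, Smad3, Skil and Pmepa1 against KT held with any 1 library left out. Those of the others did not: adjusted p was 0.0559 for Pcsk5 without KT replicate 2, 0.06 and 0.0592 for Pcsk6 without KT replicates 2 and 3 in turn, 0.0665 to 0.0972 for Furin without KT replicate 2, 3 or 4, 0.063 to 0.096 for Smad7 without KT replicate 1, 2 or 3, and 0.059 to 0.12 for Acvr1b without sgSik1-3 replicate 1, sgSik1 replicate 1 or 3, or any 1 KT library. The list count was 4 without KT replicate 2 and 5 without KT replicate 3, and with both left out none of the 9 passed. Adjusted p was then 0.0753 for Fst, 0.139 for Smad3, 0.106 for Skil and 0.107 for Pmepa1. The log2 changes were 5.77 for Fst, 1.77 for Smad3, 1.33 for Skil, 1.85 for Pmepa1 and 2.65 for Pcsk6. Those of Furin, Smad7, Acvr1b and Pcsk5 were 1.63, 1.70, 1.46 and -3.18. Leaving out both libraries also made the KT group smaller.

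**Figure D3:**
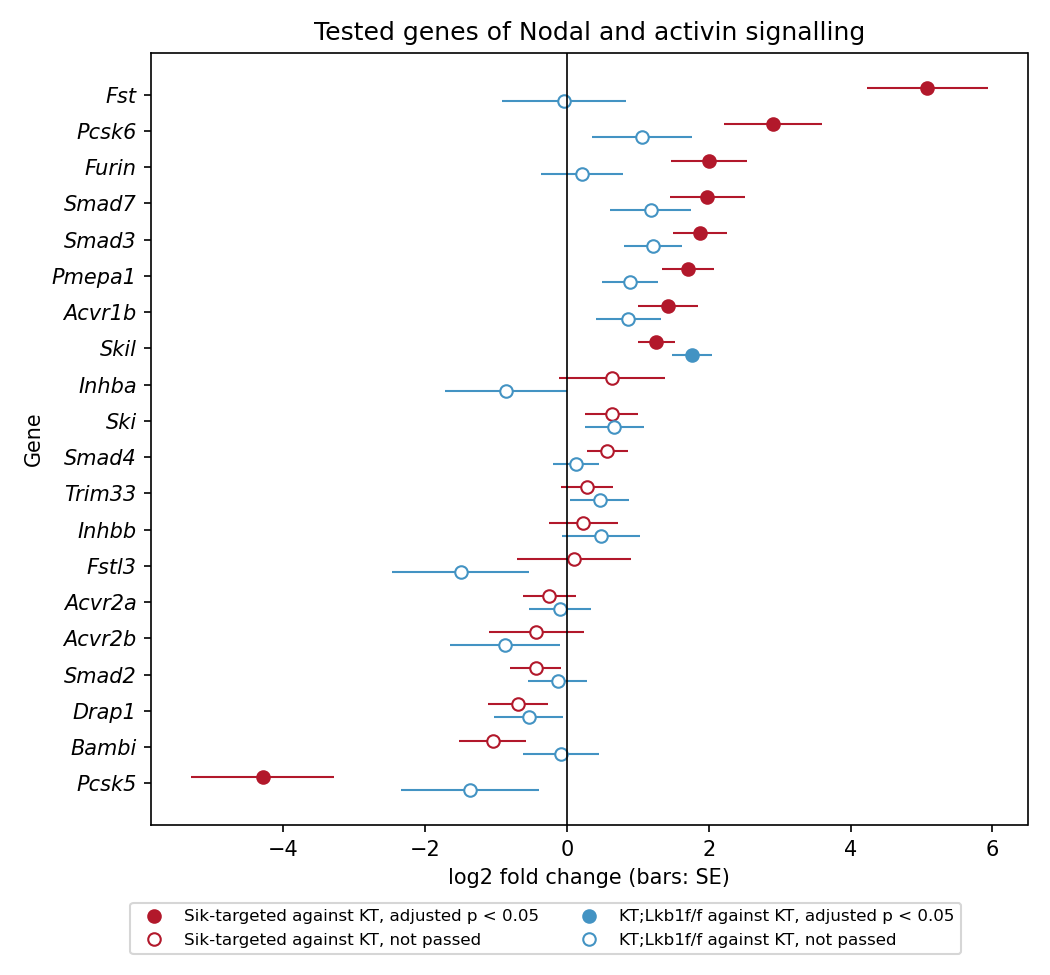
Log2 fold change with its SE of the 20 tested Nodal and activin signalling genes, for Sik-targeted against KT and KT;Lkb1f/f against KT, with filled points where the adjusted p was under 0.05. The first comparison has 8 filled points above 0 and 1 below, and the second has 1, Skil. Both comparisons share the KT libraries.

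Against KT;Lkb1f/f, Fst was the 1 member of the Nodal and activin list that passed. Its log2 change in Sik-targeted against KT;Lkb1f/f cells was 5.12 (SE 0.973, adjusted p = 0.0441), beside 0.118% of all tested genes higher in Sik-targeted cells and 0.221% called in either direction. This call was lost when any 1 of 8 libraries was left out, with adjusted p between 0.0668 and 0.205 (either sgSik1-3 library, sgSik1 replicate 1 or 3, KT;Lkb1f/f replicate 3, or KT replicate 2, 3 or 4). Without KT;Lkb1f/f replicate 2, whose Fst was the highest of its group, the log2 change was 7.44. The number of genes called in the whole comparison, 30, moved widely with single libraries, to 710 without KT;Lkb1f/f replicate 1, 271 without sgSik1 replicate 2 and 5 without KT;Lkb1f/f replicate 3.

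BMP and Wnt signals act with Nodal in the streak. Of 22 BMP signalling genes 17 were tested, and in Sik-targeted against KT cells none rose and 2 fell, beside the background of 12.4% called in either direction, with a median log2 change of -0.01 against -0.03 over all tested genes. A count of 2 in 17 is near that background. Bmp5, a ligand, had 0.945 and 1.09 CPM in sgSik1-3, 0.568, 10.7 and 1.69 CPM in sgSik1, 23.1, 47.7 and 16.5 CPM in KT;Lkb1f/f and 22.2, 14.9, 21.6 and 22.7 CPM in KT libraries. It fell by 2.71 on the log2 scale (SE 0.657, adjusted p = 0.0173), and the log2 change was -4.11 without sgSik1 replicate 2, the Sik-targeted library with the highest level. The receptor gene Bmpr1b also passed (adjusted p = 0.0273), with 1 count over the 5 Sik-targeted libraries and 25, 33, 14 and 0 counts in KT libraries. Its call was lost when either sgSik1-3 library, sgSik1 replicate 3, or KT replicate 1, 2 or 3 was left out, with adjusted p between 0.0507 and 0.0722, and with limma-voom (0.0508). Bmp4 did not pass (0.68, SE 0.368, adjusted p = 0.243).

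Of 32 Wnt signalling genes 27 were tested, with 2 that rose and 1 that fell and a median log2 change of 0.19, against -0.03 over all tested genes. A count of 3 in 27 is near the background of 12.4% called in either direction. Porcn, the acyltransferase that Wnt ligands need for secretion, had 77.0 and 139 CPM in sgSik1-3, 303, 23.1 and 135 CPM in sgSik1, 11.3, 6.48 and 18 CPM in KT;Lkb1f/f and 13.1, 9.46, 14.8 and 13.8 CPM in KT libraries. Every Sik-targeted library was above the others, and Porcn rose by 3.41 against KT (SE 0.584, adjusted p = 0.00351). Against KT;Lkb1f/f it rose by 3.51 (SE 0.665, adjusted p = 0.0422), and this call was lost when any 1 of 10 libraries was left out, with adjusted p between 0.0565 and 0.216 (all libraries except sgSik1 replicate 2 and KT;Lkb1f/f replicate 1), and with limma-voom (0.0657).

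Tcf7l2, a transcription factor of the pathway, rose by 1.87 against KT (SE 0.496, adjusted p = 0.0252), a call lost without sgSik1 replicate 1 or KT replicate 1, 2 or 3 (adjusted p 0.0514 to 0.0798). In KT;Lkb1f/f against KT cells the log2 change of Tcf7l2 was 1.25 (SE 0.532) and did not pass. Sp5, a target of Wnt signalling, fell by 3.78 (SE 0.902, adjusted p = 0.0161), with a log2 change of -4.41 without sgSik1 replicate 2. Sp5 was also low in KT;Lkb1f/f libraries (0, 0.103 and 0.367 CPM), with a log2 change of -3.98 against KT (SE 1.12) that did not pass. Between Sik-targeted and KT;Lkb1f/f cells it was 0.197 (SE 1.08), so Sp5 did not share the Mixl1 pattern. Axin2, a widely used target gene, had a log2 change of -1.79 (SE 0.656, adjusted p = 0.0869) and passed without KT;Lkb1f/f replicate 1 (adjusted p = 0.0452), without a low-count filter (0.0418), with DESeq2 (0.0456) and with limma-voom (0.0345). Ctnnb1, which encodes beta-catenin, had a log2 change of 0.74 (SE 0.366, adjusted p = 0.201). The streak ligands Wnt3 and Wnt3a had at most 10 counts in any library. Without KT replicates 2 and 3 together, no gene of either list passed against KT: adjusted p was 0.111 for Bmp5, 0.151 for Bmpr1b, 0.0899 for Porcn, 0.204 for Tcf7l2 and 0.135 for Sp5.

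**Figure D4:**
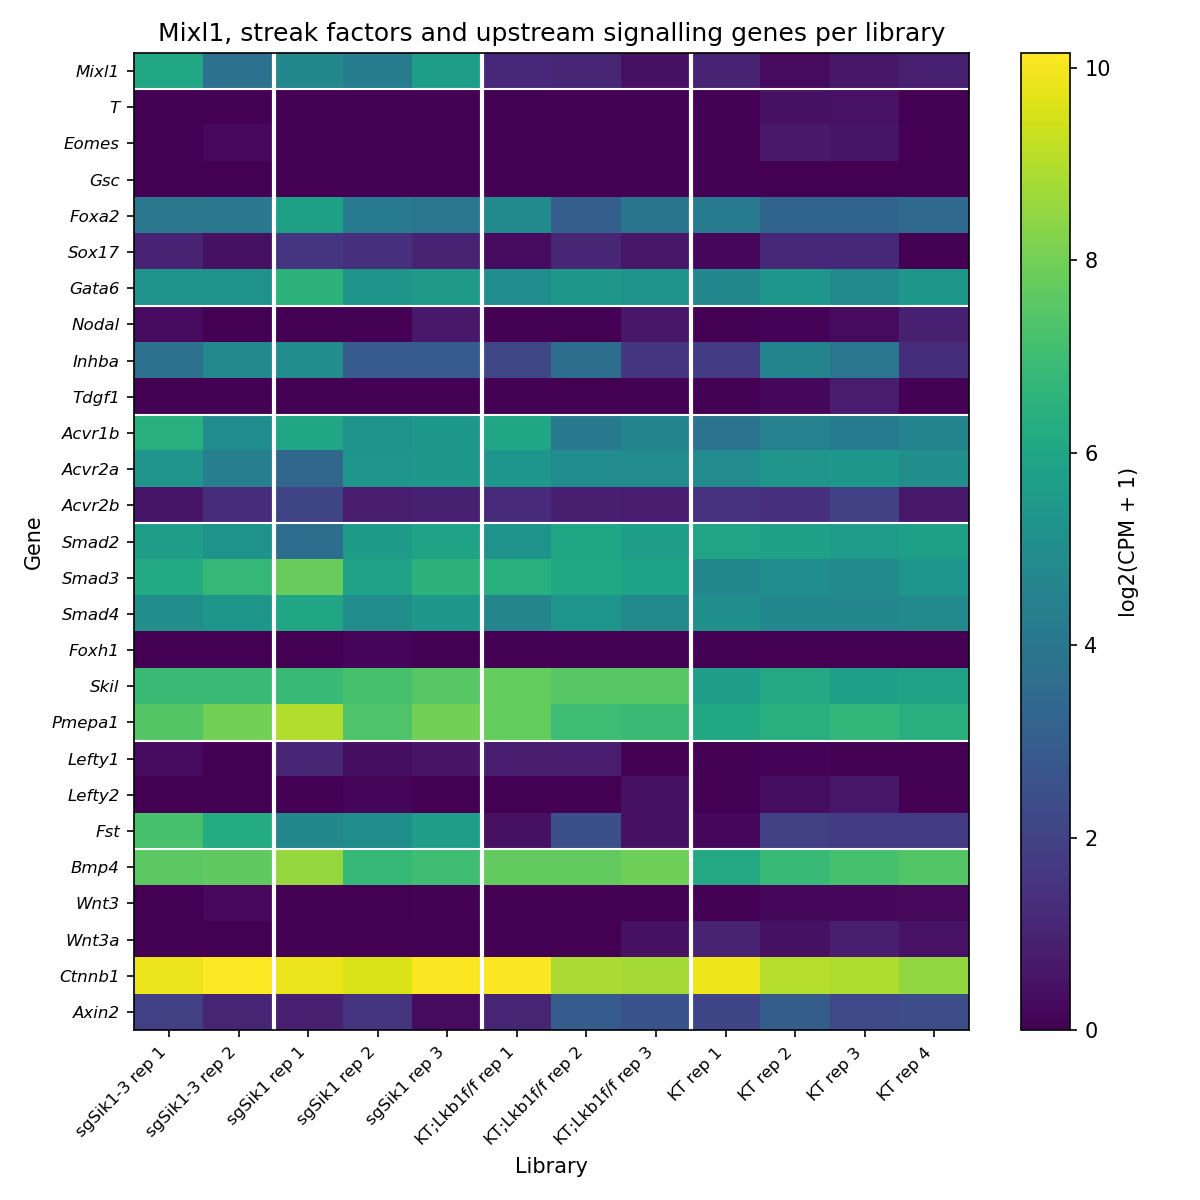
Level, as log2(CPM + 1), of Mixl1, streak factors and signalling genes in the 12 libraries, with white lines between groups and between roles. Mixl1 and Fst are higher in each of the 5 Sik-targeted columns than in any other column, while T, Eomes, Gsc and Foxh1 stay near 0 in all columns.

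Most other homeobox genes of the paired-like class were too low to test. Of 28 in the table, 2 had 0 counts in every library and 2 passed the low-count filter, and 1 of them, Prrx2, a factor of embryonic mesenchyme, rose in Sik-targeted against KT cells by 4.03 (SE 1.06, adjusted p = 0.0241). Prrx2 had 1.89 and 10.1 CPM in sgSik1-3, 15.1, 0.854 and 3.49 CPM in sgSik1, 1.70, 0.103 and 0.551 CPM in KT;Lkb1f/f and 0, 0.893, 0.321 and 0 CPM in KT libraries, so the groups overlapped. Its call was lost without sgSik1-3 replicate 2, sgSik1 replicate 1 or KT replicate 1, 3 or 4 (adjusted p 0.0558 to 0.0795), and without KT replicates 2 and 3 together (0.0963). The log2 change was 5.23 without KT replicate 2.

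Of 18 pluripotency genes 3 could be tested, and 1, Klf4, rose, beside 5.81% of all tested genes. A share is not read from so few tested genes, here or in the paired-like and blood lists. Klf4, which is also expressed in differentiated epithelia, had 184 and 302 CPM in sgSik1-3, 588, 67.9 and 159 CPM in sgSik1, 628, 228 and 273 CPM in KT;Lkb1f/f and 23.1, 69.8, 29.0 and 45.8 CPM in KT libraries. It rose in Sik-targeted cells (2.63, SE 0.576, adjusted p = 0.0113) and in KT;Lkb1f/f cells (3.16, SE 0.624, adjusted p = 0.0322), and so did not share the Mixl1 pattern. The second call was lost without sgSik1-3 replicate 2, KT;Lkb1f/f replicate 1 or any 1 KT library (adjusted p 0.0528 to 0.124), and both were lost without KT replicates 2 and 3 together (0.107 and 0.331).

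The genes whose levels were most like those of Mixl1 were found by Pearson's r on log2(CPM + 1) over the 12 libraries, among 10129 genes with a mean of at least 2 CPM. The median r was 0.03, and 25 genes had r above 0.9. The 8 closest were Pkp1 (r = 0.947), Egln3 (0.936), Fam108c (0.929), Gas2l3 (0.926), Lpar1 (0.925), Fst (0.923), Ccdc6 (0.921) and Pwp1 (0.920). The libraries fall into high and low clusters, so any gene that separates the same 5 libraries scores highly, and the points share their group, library and depth. The r values are a description and carry no test.

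Pkp1, a desmosomal plakophilin of stratified epithelia, had 102 and 81.4 CPM in sgSik1-3, 96.9, 21.6 and 90.7 CPM in sgSik1, 3.28, 0.103 and 0.184 CPM in KT;Lkb1f/f and 1.26, 1.12, 2.65 and 0.637 CPM in KT libraries. Gas2l3, which binds the cytoskeleton, averaged 18 ± 14.3 CPM in Sik-targeted (SD, n = 5), 2.38 ± 2.26 CPM in KT;Lkb1f/f (SD, n = 3) and 2.47 ± 0.823 CPM in KT libraries (SD, n = 4). Lpar1, a receptor for lysophosphatidic acid, averaged 16.7 ± 8.65, 2.68 ± 2.88 and 1.07 ± 0.654 CPM in the same groups (SD). Egln3, an oxygen-sensing prolyl hydroxylase, averaged 8.52 ± 3.40, 1.24 ± 1.01 and 1.24 ± 0.682 CPM (SD). Like Mixl1, all 4 had KT;Lkb1f/f means close to the KT mean relative to the Sik-targeted mean. They were picked by their likeness to Mixl1 over these groups, so this trait is no separate result. A high r did not need a large step. Fam108c averaged 73.9, 42.9 and 41.5 CPM and Ccdc6 82.4, 57.6 and 55.1 CPM in the same groups, which is 1.78-fold and 1.49-fold higher in Sik-targeted than KT cells by edgeR. The likeness was looser in KT;Lkb1f/f replicate 1, where Lpar1 had 5.95 CPM against 8.53 CPM in the lowest Sik-targeted library. Pwp1 had 19.6 CPM in that replicate, above the lowest Sik-targeted library (18.1 CPM). The set depended on the measure: of the 8 names, 4 were kept with a pseudocount of 0.25, 1 with Spearman's rho and 5 without KT replicates 2 and 3.

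Of the libraries without Sik guides, KT;Lkb1f/f replicate 1 was the closest to the Sik-targeted libraries by the median of the genes higher in them, while its Mixl1 level (1.21 CPM) was far below theirs. For each gene that was higher in Sik-targeted than in KT cells, the library's place on the log2(CPM + 1) scale between the KT mean (0%) and the Sik-targeted mean (100%) was computed. Over the 788 such genes other than Mixl1, the median place was 86.4% in KT;Lkb1f/f replicate 1, 31.2% in replicate 2 and 30.1% in replicate 3. Mixl1 stood at 10.7%, 9.41% and -5.78% in the same 3 libraries. In replicate 1, 69 of the 788 genes (8.76%) were at or below the place of Mixl1, and Fst was at -21.6%. With a pseudocount of 0.25, chosen after the data were seen, the median, Mixl1 and Fst were at 87.7%, 15.6% and -29.1% in replicate 1, and 74 genes (9.39%) were at or below Mixl1. In replicates 2 and 3 the shares at or below Mixl1 were 33.6% and 19.9%. The 788 genes were called with all libraries, so their places are a description. Mixl1 was chosen for being near absent in KT;Lkb1f/f and KT libraries, so its low place there was set by the choice. Its rank among the 788 genes is therefore no result about Mixl1.

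**Figure D5:**
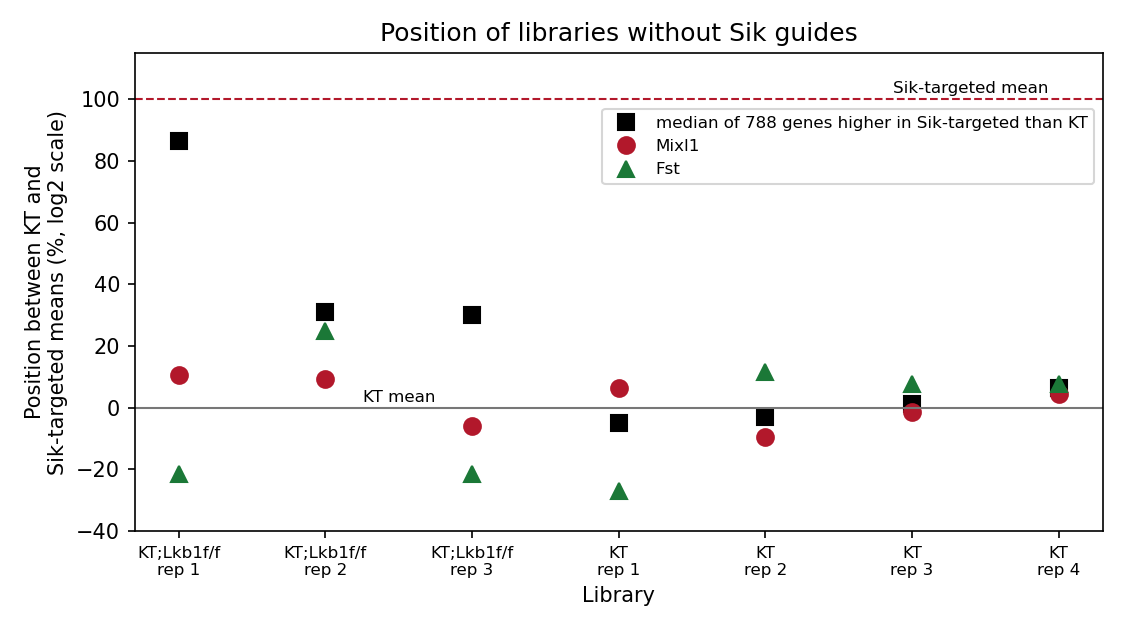
Place of each KT;Lkb1f/f and KT library between the KT mean (0%) and the Sik-targeted mean (100%) on the log2(CPM + 1) scale, for Mixl1, Fst and the median of 788 genes higher in Sik-targeted than in KT cells. In KT;Lkb1f/f replicate 1 the median is at 86.4% while Mixl1 is at 10.7%. Mixl1 was chosen for low levels in the KT;Lkb1f/f and KT libraries, so its low places follow from the choice.

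Lineage markers moved with the groups and are given beside the Mixl1 values. Sftpc, the surfactant protein of alveolar type 2 cells, had 699 and 752 CPM in sgSik1-3, 1140, 4390 and 402 CPM in sgSik1, 537, 19300 and 18700 CPM in KT;Lkb1f/f and 55500, 9520, 7730 and 20300 CPM in KT libraries. KT;Lkb1f/f replicate 1 thus had Sftpc in the Sik-targeted range, while its Mixl1 level, 1.21 CPM, lay above the highest KT library (0.944 CPM) and far below the lowest Sik-targeted library (13.2 CPM). Of the 12 lung epithelial markers, Krt8 and Krt18 rose and Sftpc and Lamp3 fell in Sik-targeted against KT cells, beside 5.81% of all tested genes higher and 6.56% lower. Krt8 lost its call without KT replicate 2 or 3 (adjusted p 0.0559 and 0.053), Sftpc lost it without sgSik1 replicate 1 or KT replicate 1 (0.0534 and 0.0518), and all 4 lost it without KT replicates 2 and 3 together (0.0611 to 0.195). The summed level of the 12 markers was 11500 to 13100 CPM in sgSik1-3, 10900 to 35500 CPM in sgSik1, 15500 to 36000 CPM in KT;Lkb1f/f and 19700 to 77400 CPM in KT libraries.

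Sorting had excluded cells with CD45, CD31, F4/80 or Ter119 at the surface. The summed level of 13 leukocyte markers was 8.98 to 16.5 CPM in sgSik1-3, 3.70 to 21.0 CPM in sgSik1, 8.02 to 16.9 CPM in KT;Lkb1f/f and 31.2 to 86.9 CPM in KT libraries. Its values were highest in KT and overlapped among the other groups. Of the 7 leukocyte markers tested, 5 fell in Sik-targeted against KT cells, beside 6.56% of all tested genes lower. In KT;Lkb1f/f against KT cells 3 of the 7 fell, beside 0.552%. None rose in either. Ptprc, which encodes CD45, had 9, 106, 86 and 5 counts in KT replicates 1 to 4, so most of its KT counts were in replicates 2 and 3. The 10 blood progenitor and erythroid markers summed to 207 to 222 CPM in sgSik1-3, 196 to 632 CPM in sgSik1, 208 to 394 CPM in KT;Lkb1f/f and 88.6 to 128 CPM in KT libraries. Within that list the erythroid factor gene Gata1 had 0 counts in every Sik-targeted and KT;Lkb1f/f library. Of 3 tested members, 1, Runx1, rose in Sik-targeted against KT cells (1.52, SE 0.398, adjusted p = 0.0243). This call was lost when any 1 KT library was left out (adjusted p 0.0541 to 0.076). Kit (-0.005, SE 0.609, adjusted p = 0.997) and Cd34 (-1.40, SE 0.921, adjusted p = 0.339) did not pass. In sgSik1 replicate 1, where the list summed to 632 CPM, Kit had 3.69 and Cd34 0.568 CPM, and 5 of the 10 members had 0 counts. The members at 0 counts numbered 4 to 5 in sgSik1-3 and 3 to 5 in sgSik1 libraries. The sums thus rest on few members and do not show a rise of the list as a whole. The 8 fibroblast and pericyte markers summed to 21.5 to 42.4 CPM in sgSik1-3, 16.5 to 38.9 CPM in sgSik1, 1.82 to 415 CPM in KT;Lkb1f/f and 30.2 to 402 CPM in KT libraries. The 8 endothelial markers summed to 26.7 to 45.8, 17.5 to 27.6, 1.34 to 230 and 15.7 to 41.0 CPM in the same order. In Sik-targeted against KT cells, 2 of 7 tested fibroblast and pericyte markers fell, beside 6.56% of all tested genes lower, and none rose. None of the 8 endothelial markers was called. The part of these differences in the Mixl1 values was not tested.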

How the data were processed

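RNA-seq counts were deposited by the authors as whole-number counts per gene symbol in 1 table of 30743 genes and 12 libraries. Per the submitters' processing notes, STAR 2.4.2a, HTSeq and the mm10 genome were used. Neither the annotation nor the strandedness of the counting was given in the sources used. Per the labels' protocols, tumours were digested at 37 °C for 30 min, cells were sorted, and RNA was amplified before library preparation.

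The tests on counts used edgeR 4.0.16 and R 4.3.3 (TMM scaling, filterByExpr, robust quasi-likelihood F test, 2-sided, Benjamini-Hochberg adjustment over all tested genes, threshold 0.05). All 12 libraries entered 1 fit in 3 genotype groups (13575 genes) and, for sgSik1-3 against sgSik1, 1 fit in 4 title groups (15303 genes), so all groups share the spread. CPM divide by TMM effective library sizes. DESeq2 1.42.0 and limma 3.58.1 were alternatives. The fits were tested on simulated data: for Sik-targeted against KT (12262 genes), 1 of 67 genes changed 2-fold, 30 of 67 changed 4-fold and 39 of 66 changed 8-fold were called, so a gene that did not pass may still differ.

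Mixl1 and the gene lists were chosen with earlier results of these data known. Named genes were Mixl1, Stk11 and Sik1 to Sik3, the nearest annotated neighbours, the 8 genes most like Mixl1 (predicted, Y-linked, mitochondrial and antigen-receptor genes left out), for each list up to 6 called members, smallest p first, and a fixed set of streak and signalling genes. Neighbours came from a RefSeq table of GRCm38 and exons from GENCODE vM21.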

Additional observations from a re-analysis of the deposited data

Results flagged for a closer look

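Of 97 sets of 4 or 5 libraries examined (named genes in Sik-targeted and KT libraries), 16 held a library whose gap to the nearest other library passed Dixon's 95% critical value, where chance flags about 1 in 20. Mixl1 was not among them. In sgSik1 replicate 1 there were 7: Foxa2 at 54.0 CPM, Gata6 at 94.9 CPM, Pmepa1 at 506 CPM, Tcf7l2 at 199 CPM, Smad7 at 130 CPM and Furin at 301 CPM were far above the other Sik-targeted libraries, and Acbd3 at 21.6 CPM was far below them. That library also had the largest share of counts in the 4 most abundant transcripts, 74.2%, and the part of this in its values was not tested. In sgSik1 replicate 2, Pkp1 was low at 21.6 CPM and Bmp5 was high at 10.7 CPM. In sgSik1-3 replicate 1, Gas2l3 was high at 43.0 CPM and Cxcr4 was high at 4.02 CPM. Among KT libraries, replicate 1 was high in Acbd3 at 45.5 CPM and in Foxa2 at 16.7 CPM and low in Fst at 0.157 CPM, replicate 2 was low in Bmp5 at 14.9 CPM, and replicate 4 was low in Pwp1 at 5.73 CPM.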

How the results depend on the processing

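The Mixl1 difference between sgSik1-3 and sgSik1 missed the threshold under all 20 alternatives and turned round under 2: -0.0595 with limma-voom and -1.28 without sgSik1-3 replicate 1, with a range of -1.28 to 1.01 when single libraries were left out. Group means of Mixl1 moved with the scaling. On totals without the 4 most abundant transcripts they were 75.7 CPM in sgSik1-3, 60.2 in sgSik1, 1.74 in KT;Lkb1f/f and 1.44 in KT, and on total counts the KT mean was 0.986. Leaving out single libraries gave 13.2 to 64.5, 21.8 to 37.9, 0.749 to 1.17 and 0.545 to 0.785 CPM. Counts of called genes moved widely. For Sik-targeted against KT (1679) they were 3654 without a low-count filter, 2526 with DESeq2, 98 without KT replicates 2 and 3, and 577 to 2655 with 1 library left out. For KT;Lkb1f/f against KT (158) they were 846, 553, 3 and 13 to 242 in the same order. For Sik-targeted against KT;Lkb1f/f (30) they were 698, 345, 9 and 5 to 710, and 0 when only these groups were fitted. For sgSik1-3 against sgSik1 (0) they were 44 without a filter, 6 with DESeq2 and 0 to 4 with 1 library left out. The cause was not tested. Of the single-gene differences named, those called kept their sign under every alternative run. In Sik-targeted against KT cells, the Wnt list held 10 called genes without a filter, 9 with DESeq2 and 7 with limma-voom, against 3. The BMP list held 6, 5 and 2, against 2. Over all tested genes the called numbers were 3654, 2526 and 1876 under these settings, against 1679. The background shares under these settings were not computed, so the list counts are not read against them. Acvr2b in Sik-targeted against KT cells turned to 0.138 without KT replicates 2 and 3. Fst in KT;Lkb1f/f against KT cells turned to 0.679 without KT replicates 2 and 3, 0.459 and 0.4 without KT;Lkb1f/f replicate 1 or 3, and 0.193, 0.0501 and 0.0184 without KT replicate 2, 3 or 4, within a range of -2.34 to 0.459 with 1 library left out. Limits are the 2 to 4 libraries per title, 2 to 11 Mixl1 counts in each library without Sik guides, and a fit whose calls depended on KT replicates 2 and 3. Leaving both out also made the KT group smaller, and no other pair of libraries was left out for comparison. Loss of precision and the part of these libraries therefore cannot be told apart.

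Replicate numbers are shared between titles, but nothing in the labels ties them to an animal or day. Same-number libraries had a median correlation of 0.075 in their deviations from the group mean (-0.413 to 0.224 over 15 pairs, 6 above 0.1). With the replicate number as a block, 1050, 49 and 10 genes were called for Sik-targeted against KT, KT;Lkb1f/f against KT and Sik-targeted against KT;Lkb1f/f, and Mixl1 was 0.12 higher in sgSik1-3 than in sgSik1 on the log2 scale. Of 30 single-gene calls examined, 12 missed the threshold with the block (adjusted p 0.0586 to 0.106): Prrx2, Tcf7l2, Smad7, Acvr1b, Cxcr4, Runx1, Sik2 and Sik3 in Sik-targeted against KT, Skil and Klf4 in KT;Lkb1f/f against KT, and Fst and Porcn in Sik-targeted against KT;Lkb1f/f.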
